A study of Mus musculus with 8 samples.

Results

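The genes described here are the amino acid response genes controlled by ATF4 and the chaperone genes of endoplasmic reticulum (ER) stress, a list of 32 mouse genes drawn up by name, and all 32 were among the 24888 gene symbols counted. They fall into 4 role groups, with 10 stress factors, 8 enzymes of serine, asparagine, one-carbon and proline synthesis, 6 amino acid transporters and 8 ER stress and chaperone genes. RNA sequencing counts came from 8 libraries, 1 per group, all derived from the E14 mouse embryonic stem cell line. ESC and expanded potential stem cells (EPSC, made from ESC over 5 passages) were each sequenced untreated and after 3 days with T0901317 (T09), an agonist of the liver X receptors. Its dose is labelled 1 uM/mL, which does not fix a molar concentration. Day 2 blastoids, which are aggregates of EPSC that model the blastocyst, had been transfected with an siRNA against Nr1h2, the gene of liver X receptor beta (siNr1h2), or a non-targeting siRNA (siNT), and were harvested 48 hours later. Day 5 blastoids of Type I and of Type III were sorted by manual picking, and both are labelled as derived from T09-treated EPSC. Nothing in the labels says how many blastoids or cultures a library pooled. ESC were grown in DMEM with serum, and EPSC in DMEM/F-12 with serum replacement and further inhibitors of JNK, p38, Src-family kinases and tankyrase. Both media held LIF, a GSK3 inhibitor, a MEK inhibitor, L-glutamine and non-essential amino acids, and blastoids were formed in another medium with FGF4 and heparin.

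Total counts ran from 24666260 to 40781415 per library. No group had a replicate. A ratio of 2 libraries therefore carries no p-value, and its 95% exact Clopper-Pearson interval covers counting error only. In the siNr1h2 library Nr1h2 stood at 70% (64.9 to 75.6%) of the siNT level. Pou5f1, the central pluripotency factor, lay between 1201 and 1387 CPM (counts scaled per TMM-normalised library size, the unit of all levels below) in the 4 stem cell libraries, between 973.1 and 993.1 on day 2, and at 336 in Type III and 159.8 in Type I. The summed level of 10 primitive endoderm markers was 215.6 to 419.8 CPM in stem cells, 3160 and 3027 in siNT and siNr1h2, and 5854 and 7855 in Type III and Type I. Lama1 and Lrp2 made up most of the stem cell sums, at 129.5 and 86.11 in untreated ESC and 160 and 217.1 in untreated EPSC. In bulk RNA, fewer cells of a type and less RNA per cell cannot be told apart.

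When amino acids are short or misfolded proteins fill the ER, kinases phosphorylate the initiation factor eIF2, which lowers general translation while the mRNA of Atf4 is translated more. ATF4 then binds composite sites with C/EBP family partners and activates genes for amino acid synthesis, uptake and tRNA charging, together with feedback and death genes such as Trib3, Chac1 and Ddit3. In parallel the ER sensors IRE1 and ATF6, through the transcription factor XBP1 and through ATF6 itself, activate chaperone genes. Embryonic stem cells are known for a high demand for serine, one-carbon units and other amino acids during rapid growth. ATF4 activity is set largely by translation, so the mRNA level of Atf4 is only one part of it.

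The letters of both pathways' binding sites are shown first, where they occur near the starts of the listed genes. The genes were listed by name as members of both pathways. A share of the pathways' own sites above that of all promoters is therefore no independent finding. Promoters from RefSeq (build GRCm38.p6, 250 bases before to 50 after a gene's start) were matched for 29 of the 32 genes, in 32 promoters. The core of the C/EBP-ATF response element, TGATGNAA on either strand, was found in 7 of these 32 promoters (21.9%) and in 3.97% of all 32851 promoters of that length. The ER stress response element, CCAAT, 9 bases of any kind and CCACG on either strand, was found in 3 (9.38%) and in 0.119% of all. The letters TGACGTGG, the core of the XBP1 and ATF6 site, were found in 0 of the 32 and in 0.676% of all. A match is a description of the letters and no evidence of binding, and no match says only that these letters are not in this window. The windows below read 5′ to 3′ on the gene's strand, with the matched letters in capitals. No promoter of the 32 held both motifs.
Asns, chr6:7693210-7693252, minus strand, match from -23: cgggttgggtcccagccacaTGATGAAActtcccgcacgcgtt
Nupr1, chr7:126625553-126625600, minus strand, match from -110: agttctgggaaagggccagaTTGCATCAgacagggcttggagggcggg
Pycr1, chr11:120643824-120643871, minus strand, match from -103: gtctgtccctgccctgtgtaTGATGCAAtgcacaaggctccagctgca
Chac1, chr2:119351029-119351076, plus strand, match from -193: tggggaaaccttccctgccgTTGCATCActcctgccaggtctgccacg
Trib3, chr2:152344039-152344060, minus strand, match from +15: agattagctcaggtTTACATCA
Hspa5, chr2:34772005-34772063, plus strand, match from -65: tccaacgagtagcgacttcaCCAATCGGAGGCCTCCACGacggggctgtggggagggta
Dnajc3, chr14:118937807-118937865, plus strand, match from -105: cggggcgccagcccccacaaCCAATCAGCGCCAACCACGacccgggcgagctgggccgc
Positions are of the first matched base, counted from the gene's start. Slc7a11 (2 matches) and Herpud1 hold the first motif too, and Hsp90b1 holds 2 matches of the second.

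Compared per kilobase of exon, the mean levels over the 8 libraries ran from 256.1 CPM per kilobase for Hsp90b1, the ER paralog of HSP90, 180.9 for Asns, asparagine synthetase, and 178.7 for Hspa5, the ER chaperone BiP, down to 0.0237 for Slc7a11, the cystine transporter. Eif4ebp1, which encodes the translation repressor 4E-BP1, followed at 110.8 per kilobase and Pdia4, an ER disulfide isomerase, at 98.67. Slc7a5 and Slc3a2, the light and heavy chains of the large neutral amino acid transporter, were at 77.37 and 64.12. Chac1, a glutathione-degrading enzyme, and Cebpb, a C/EBP family transcription factor, were low at 2.812 and 1.664. Slc7a11 rested on 3 to 24 counts in each library and its values are imprecise throughout.

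The genes differed widely in how much they moved. Nupr1, a stress-induced chromatin protein, had the widest range, 37.3-fold between its highest and lowest library, followed by Slc7a3, a cationic amino acid transporter of early embryonic cells, at 13.3-fold and Chac1 at 10.3-fold. At the other end were Dnajb9, an ER co-chaperone, at 1.29-fold, Slc38a2, a neutral amino acid transporter, at 1.34-fold, Hsp90b1 at 1.46-fold and Hspa5 at 1.49-fold. Hspa5, Hsp90b1 and Dnajb9 were thus near level throughout, while single stress factors, enzymes and transporters were not. Other ER genes moved more, with Dnajc3 at 5.44-fold, Herpud1 at 2.68-fold and Pdia4 at 2.02-fold. T09-treated ESC was the highest of the 8 libraries for Atf4, Chac1, Eif4ebp1, Nupr1, Asns, Psat1, Shmt2, Mthfd2, Pycr1, Slc7a1 and Slc7a5, and Type I was the highest for Phgdh, Aldh18a1, Herpud1, Hspa5, Xbp1 and Dnajc3. The share of all genes that were highest in either library is not given, so these peaks cannot be called particular to the listed genes.

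**Figure D1:**
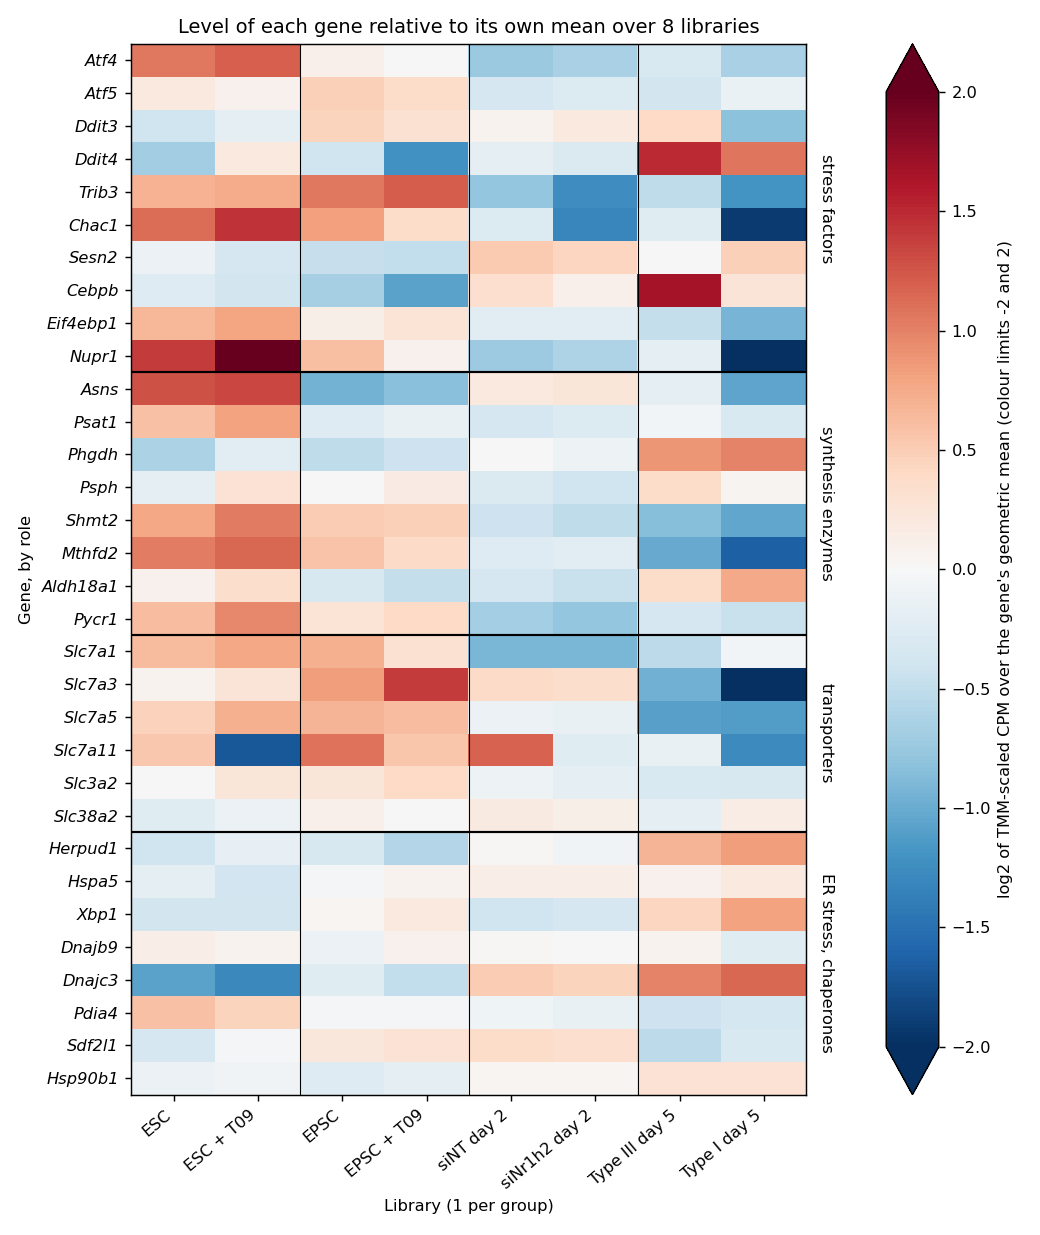
Each cell shows the log2 level of 1 gene (rows, by role) in 1 library (columns) relative to that gene's geometric mean over the 8 libraries, with red above and blue below. Most synthesis enzymes are darkest red in the 2 ESC libraries, Slc7a3 and Slc7a5 are bluest in the 2 day 5 blastoids, Slc7a1 in the 2 day 2 blastoids, and Hspa5, Hsp90b1 and Dnajb9 stay near white.

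Summed over each role group, the 8 enzymes held 2018 CPM in ESC and 2251 in T09-treated ESC, against 975.8 to 1150 in the other 6 libraries. Asns alone made up 984.0 and 1028 of these CPM in the 2 ESC libraries, against 195.8 to 482.8 elsewhere. The 6 transporters summed to 1125 to 1351 in the stem cell libraries, 890.8 and 920.7 on day 2 and 685.2 and 762.4 on day 5. The 8 ER genes summed to 2026 to 2144 in stem cells, 2341 and 2358 on day 2 and 2584 and 2709 on day 5. The 10 stress factors summed to 878.3 and 972.2 in ESC and 520.8 to 608.6 in the other libraries, which did not overlap. Atf4 (300.8 and 333.8) and Eif4ebp1 (361.3 and 394.3) made up most of the sums in untreated and T09-treated ESC. Not all stress factors had that order. Ddit4, Sesn2 and Cebpb were highest in a blastoid library, Atf5 and Ddit3 in EPSC and Trib3 in T09-treated EPSC.

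**Figure D2:**
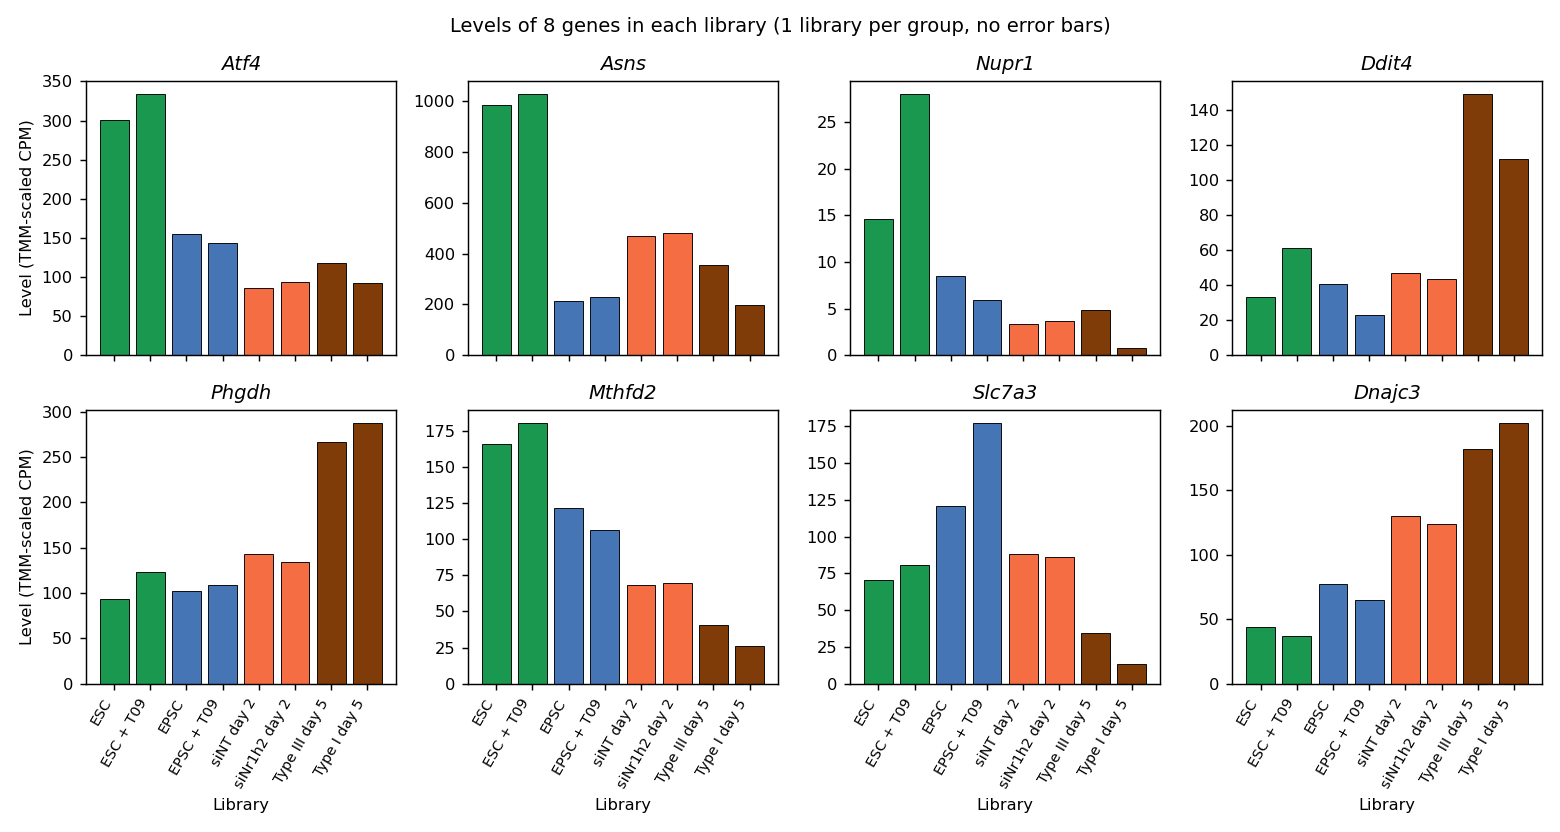
Bars give the level of 8 genes, in TMM-scaled CPM on axes from 0, in each of the 8 libraries, coloured by ESC, EPSC, day 2 and day 5. Atf4 and Asns are highest in the 2 ESC libraries, Phgdh and Dnajc3 in the 2 day 5 blastoids, and Slc7a3 and Mthfd2 are lowest in Type I.

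The first comparison set EPSC against ESC. Asns, most of the enzymes beside it and Atf4 itself were lower in EPSC, while 1 transporter and 3 of the ER genes were higher. The untreated and T09-treated pairs were fitted together as state plus treatment, and in that fit 10 of the 32 genes fell and 4 rose in EPSC by edgeR's quasi-likelihood test at a Benjamini-Hochberg adjusted p under 0.05 over all genes. Of the 14477 genes tested 28.8% passed, 14.3% higher and 14.5% lower. The lower share of the 32 genes was therefore above that background and the higher share was near it. The genes were chosen with earlier results of these data known, so these shares describe the list and test nothing. The median log2 change of the 32 genes was -0.16, against 0.004 over all genes tested. With library totals in place of TMM scaling the split was 7 higher and 10 lower. Each state is 1 culture line, and the fit had 1 residual degree of freedom. ESC and EPSC were also grown in different media, so state and medium cannot be told apart in this comparison.

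Asns, whose enzyme makes asparagine from aspartate and glutamine, stood at 984.0 CPM in ESC and 1028 in T09-treated ESC, and at 212.4 and 228.5 in EPSC without and with T09. The 2 EPSC libraries lay far below the 2 ESC libraries and close to each other. Asns fell by 2.20 on the log2 scale (SE 0.109, edgeR adjusted p 2.05e-06). Atf4 stood at 300.8 and 333.8 in ESC and at 154.8 and 143.7 in EPSC, again without overlap. It fell by 1.10 (SE 0.11, edgeR adjusted p 0.000102). Both genes were lower with and without the agonist, by a log2 ratio of -2.17 and -2.21 for Asns and -1.22 and -0.96 for Atf4. Past 2-fold in the untreated pair was 1 of the 32 genes, Asns, lower, where 17.6% of all genes were (9.58% higher, 8.05% lower). In the treated pair it was 6 of 31, with Atf4, Ddit4, Chac1, Nupr1 and Asns lower and Slc7a3 higher, where 18.1% of all genes were (8.35% higher, 9.79% lower). Here and below a gene counted as past 2-fold only if its counting interval excluded no change and 1 of the 2 libraries held at least 20 counts.

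Of the 8 synthesis enzymes 6 fell, 0 rose and 2 did not pass, with a median of -0.54. Psat1, the aminotransferase of serine synthesis, was at 366.1 and 421.6 CPM in ESC and 202.4 and 218.5 in EPSC, and fell by 0.91 (SE 0.103). The mitochondrial one-carbon enzymes Shmt2, which splits serine, and Mthfd2, which oxidises the unit it yields, fell by 0.42 (SE 0.111) and 0.61 (SE 0.113). Aldh18a1 and Pycr1, the first and last enzymes from glutamate to proline, fell by 0.63 (SE 0.125) and 0.46 (SE 0.137). The other enzymes of serine synthesis did not follow Psat1. Phgdh, which commits glycolytic carbon to serine, was at 93.0 and 123.5 in ESC and 101.9 and 108.3 in EPSC, with a change of -0.04 (SE 0.114) whose sign turned to 0.001 with library totals. Psph, the last step, was at 28.1 and 38.9 in ESC and 31.9 and 35.9 in EPSC, with a change of 0.02 (SE 0.14). For both genes the ESC values enclosed the EPSC values.

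Among the 10 stress factors 3 fell, Atf4, Eif4ebp1 and Nupr1, 0 rose and 7 did not pass. Eif4ebp1 was at 361.3 and 394.3 CPM in ESC and 245.8 and 273.2 in EPSC, and fell by 0.55 (SE 0.102). Nupr1 was at 14.6 and 28.0 in ESC and 8.46 and 5.88 in EPSC, without overlap but with a wide gap inside ESC, and fell by 1.53 (SE 0.299). Among the 7 that did not pass, Ddit3 and Trib3 had values above 0 and Chac1 a value below 0. Ddit3, which encodes CHOP, was at 4.46 and 5.16 in ESC and 7.99 and 7.26 in EPSC, with a change of 0.65 (SE 0.22) and an edgeR adjusted p of 0.0514. Trib3, the pseudokinase that feeds back on ATF4, was at 20.4 and 21.1 in ESC and 26.1 and 29.1 in EPSC, with a change of 0.40 (SE 0.133) and an edgeR adjusted p of 0.0518. Neither gene's groups overlapped, and both passed with library totals. Chac1 had a change of -0.70 (SE 0.242, edgeR adjusted p 0.0553), Atf5, the paralog of Atf4, 0.27, the growth inhibitor gene Sesn2 -0.26, Cebpb -0.57 and Ddit4 -0.56. Ddit4, the inhibitor of mTORC1 also called REDD1, had EPSC values of 40.5 and 23.1 that lay partly inside the ESC range of 33.0 to 61.0.

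Of the 6 transporters only Slc7a3 passed, and it rose. It stood at 70.4 and 80.6 CPM in ESC, 120.8 in EPSC and 177.5 in T09-treated EPSC, and the change was 0.95 (SE 0.119, edgeR adjusted p 0.000375). Slc7a1, the widely expressed transporter of the same cationic amino acids, had a change of -0.21 (SE 0.137), with a log2 ratio of 0.09 in the untreated and -0.48 in the treated pair. Slc7a5, Slc3a2 and Slc38a2 had changes of 0.05, 0.18 and 0.22, none past the test.

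Of the 8 ER genes 3 rose, 1 fell and 4 did not pass. Dnajc3, the co-chaperone also known as p58IPK, which restrains the eIF2 kinase PERK, was at 43.6 and 37.2 CPM in ESC and 77.5 and 64.7 in EPSC, and rose by 0.80 (SE 0.119). Xbp1, the transcription factor spliced by IRE1, rose by 0.47 (SE 0.11), and Sdf2l1, a BiP partner, rose by 0.43 (SE 0.138). Pdia4 was at 347.3 and 314.9 in ESC and 226.7 and 227.2 in EPSC, and fell by 0.55 (SE 0.104). Gene counts do not separate the spliced from the unspliced form of Xbp1. Hspa5, at 0.30 (SE 0.114, edgeR adjusted p 0.0778), Hsp90b1, at -0.13, Herpud1, an ER degradation factor, at -0.19, and Dnajb9, at -0.13, did not pass.

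**Figure D3:**
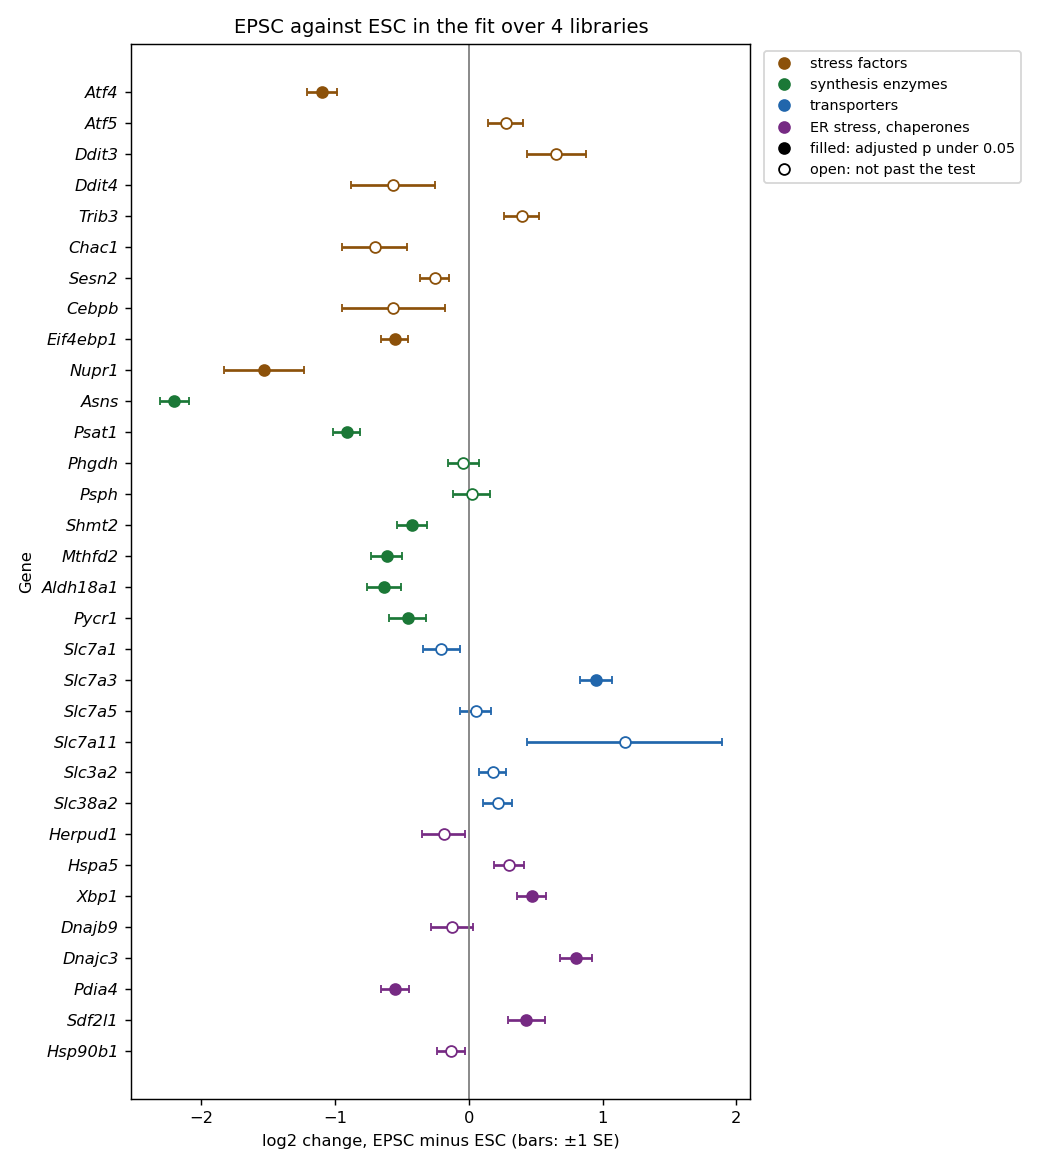
Points give the log2 change of each gene, EPSC minus ESC, in the fit over 4 libraries, with bars of 1 SE, coloured by role and filled where the adjusted p was under 0.05. Asns at -2.20 is the furthest below 0, and the filled points above 0 are Slc7a3, Xbp1, Dnajc3 and Sdf2l1.

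The motifs can be set beside these calls as a description, without a test. Of the 7 genes with the ATF4 core motif shown above, Asns, Nupr1 and Pycr1 fell, and Chac1, Trib3, Herpud1 and Slc7a11 did not pass. Atf4, Psat1, Shmt2, Mthfd2, Aldh18a1 and Pdia4 fell without it in this window, and the called genes Eif4ebp1 and Slc7a3 had no promoter entry. Of the 3 with the ER stress element, Dnajc3 rose and Hspa5 and Hsp90b1 did not pass.

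Other genes of the pathway were taken from named lists, whose counts stand against the 14.3% of all genes that were higher and the 14.5% that were lower. These lists too were chosen with earlier results of these data known, so their counts are descriptions only. Of 20 cytosolic aminoacyl-tRNA synthetases, which charge tRNAs with amino acids and many of which are ATF4 targets, 8 fell, 0 rose and 12 did not pass, with a median of -0.23. Gars, for glycine, fell most, by 0.69 (SE 0.103), followed by Tars (0.46 lower), Iars (0.42) and Cars (0.40). Of 29 tested other ATF4 targets 8 fell and 3 rose, with a median of -0.32. The cysteine synthesis genes Cbs and Cth fell by 1.52 (SE 0.162) and 0.95 (SE 0.138), the neutral amino acid transporter gene Slc43a1 fell by 0.82, and Jdp2, an AP-1 family repressor, rose by 1.29 (SE 0.192). Of 17 genes of the eIF2 kinases, eIF2 and eIF2B 4 fell and 0 rose, with a median of -0.18. Eif2b5, the catalytic subunit of the eIF2 exchange factor, fell by 1.05 (SE 0.109), Eif2ak3, which encodes PERK, fell by 0.51 (SE 0.128), and the eIF2 subunit genes Eif2s3x and Eif2s2 fell by 0.46 and 0.38. Of 32 further ER sensor, folding and degradation genes 5 rose, a share near that of all genes, and 3 fell, with a median of 0.12. Creld2 rose by 0.61 and Edem2 by 0.55, and Ero1l and Creb3l2 fell by 0.66 and 0.64.

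Marker genes moved with the state as well. Of 10 naive pluripotency markers 7 fell in EPSC, with a summed level of 7298 and 7054 CPM in ESC and 4547 and 4803 in EPSC. Of 9 tested primitive endoderm markers 6 rose, with sums of 215.6 to 224.7 in ESC, where Foxa2 had 0 counts, and 270.6 to 419.8 in EPSC. Of 9 tested trophectoderm markers 2 rose and 6 fell, with sums of 174.6 to 204.8 in ESC and 130.3 to 149.1 in EPSC, where Elf5 had 0 counts in both libraries and Hand1 in the untreated one. Their part in the differences above was not tested. The calls of Pycr1 and Sdf2l1 were lost with DESeq2 (adjusted p 0.0645 and 0.126) and in a fit of state alone (edgeR adjusted p 0.0514 and 0.0623), where the change of Pycr1 was -0.28 without T09-treated ESC and that of Sdf2l1 was 0.28 without untreated ESC. In a fit of state alone the calls of Shmt2 and Xbp1 were lost without T09-treated ESC (edgeR adjusted p 0.178 and 0.0592) or without T09-treated EPSC (0.0503 and 0.0527), and that of Xbp1 also without untreated ESC (0.0663).

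The second comparison set T09-treated against untreated cells. None of the 32 genes passed the test for T09. In edgeR's quasi-likelihood fit 0 of the 32 genes had a Benjamini-Hochberg adjusted p under 0.05, against 0.104% of all genes tested, and DESeq2 and limma-voom also called 0. At an unadjusted p under 0.05 there were 2, against 6.07% of all genes. These were Slc7a3, with a log2 change of 0.38 (SE 0.118, edgeR adjusted p 0.593), and Psph, with 0.32 (SE 0.14, edgeR adjusted p 0.814), each higher with T09 in both states. In the single pairs 0 of the 32 genes were past 2-fold in either state, where 4.19% of all genes did so in EPSC and 3.91% in ESC. Of the 8 synthesis enzymes all lay above 0 with T09 in ESC, at log2 ratios of 0.06 to 0.47, and 5 in EPSC, at -0.19 to 0.17. Over the whole list 24 of 31 genes with enough counts lay above 0 in ESC and 15 of 32 in EPSC. The share of all genes above 0 is not given, so these counts cannot be called particular to the list.

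Ddit4 and Nupr1 had the furthest ratios and ran in opposite directions in the 2 states. Ddit4 was at 61.0 CPM with T09 and 33.0 without in ESC (log2 0.89, interval 0.78 to 0.99), and at 23.1 with and 40.5 without in EPSC (-0.81, interval -0.93 to -0.69). Nupr1 was at 28.0 and 14.6 in ESC (0.94) and at 5.88 and 8.46 in EPSC (-0.52). With T09 both genes were therefore lower in EPSC than in ESC by more than 2-fold, at log2 ratios of -1.40 and -2.24, and without T09 at 0.29 and -0.79. The immediate-early genes, which respond to serum and handling within minutes, ran the same way, with Egr1 at 0.362 CPM in ESC, 89.9 in T09-treated ESC, 72.2 in EPSC and 3.04 in T09-treated EPSC, and Fos at 0.542, 22.5, 28.7 and 1.26. Of the immediate-early genes with enough counts, 9 of 10 were higher with T09 in ESC, 4 of them at least 2-fold, and 8 of 11 lower in EPSC, 4 of them at least 2-fold. Their part in the opposite ratios was not tested, and a difference in T09 response between the states cannot be told apart from the noise of 1 library.

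**Figure D4:**
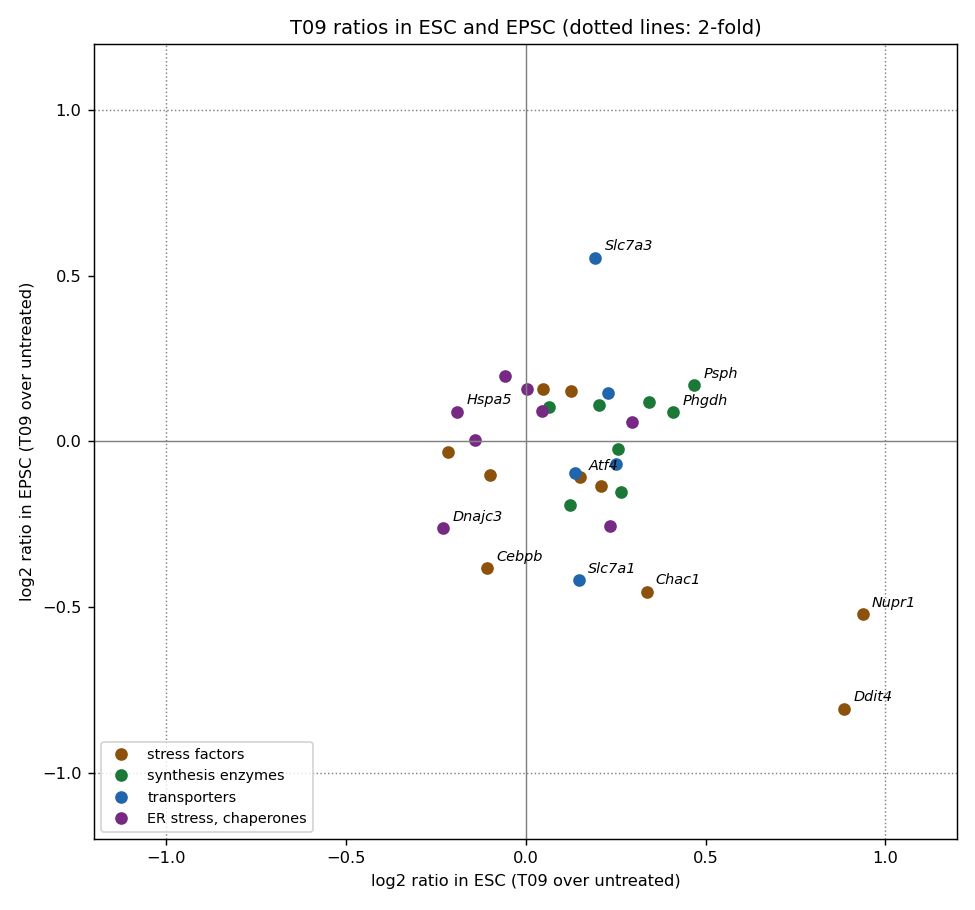
Each point is 1 gene with at least 20 counts in both pairs, placed by its log2 ratio of T09 over untreated in ESC (x) and in EPSC (y), with dotted lines at 2-fold. Ddit4 and Nupr1 sit at the lower right, at 0.89 and -0.81 and at 0.94 and -0.52, Slc7a3 is above 0 on both axes, and no gene is past 2-fold.

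The third comparison set day 2 blastoids with Nr1h2 siRNA against those with the non-targeting siRNA. Chac1 was lower in the siNr1h2 library, as was Slc7a11 on very few counts, and the other 30 genes were within 1.38-fold. Chac1 had 38 counts with siNr1h2 and 117 with siNT, or 1.45 and 2.97 CPM (log2 -1.01, interval -1.60 to -0.50). Slc7a11 had 6 and 24 counts (-1.21, interval -2.99 to -0.09). These were the 2 of 32 genes past 2-fold, where 3.66% of all genes were, 1.49% higher and 2.17% lower. The 2-fold call of Chac1 was lost with RLE size factors (-0.99) and both calls were lost with a prior count of 10. Trib3 came next at 5.34 against 7.39 CPM (-0.46), and the remaining 29 lay between -0.22 and 0.13, with Atf4 at 92.9 and 86.4 CPM and Asns at 482.8 and 469.1. All 8 synthesis enzymes lay between -0.11 and 0.07, and all 8 ER genes between -0.08 and 0.06.

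Blastoids were also set against the stem cells they were made from. The day 5 blastoids held more Phgdh, Ddit4, Cebpb, Herpud1 and Dnajc3 and less Trib3, Shmt2, Mthfd2, Slc7a3 and Slc7a5 than T09-treated EPSC. These 10 genes were past 2-fold in Type III, 5 higher and 5 lower, and in Type I they were joined by 5 more, Aldh18a1 higher and Ddit3, Chac1, Eif4ebp1 and Nupr1 lower. Of all genes 37.7% were past 2-fold in Type III (21.7% higher, 16% lower) and 40.8% in Type I (22.7% higher, 18.1% lower), against 10 and 15 of the 31 genes with enough counts. The 9 of 31 lower in Type I were a larger share than among all genes, and the 6 higher in Type I and the 5 in each direction in Type III were near it. As before, the genes were chosen with earlier results of these data known, so the shares are descriptions. Both comparisons share the T09-treated EPSC library. Against untreated EPSC, the siNT day 2 blastoids, which were also transfected and aggregated, had 5 of 32 genes past 2-fold, Asns higher and Trib3, Chac1, Nupr1 and Slc7a1 lower, against 25.8% of all genes (14.5% higher, 11.3% lower).

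The enzymes of serine and one-carbon metabolism moved apart. Phgdh stood at 93.0 to 123.5 CPM in the 4 stem cell libraries, 143.4 and 134.5 in siNT and siNr1h2, and 267.0 and 288.0 in Type III and Type I. It was 2.46-fold higher in Type III and 2.66-fold in Type I than in T09-treated EPSC. The mitochondrial one-carbon genes Shmt2 and Mthfd2 had the reverse order. Shmt2 ran from 207.7 to 304.8 in stem cells through 112.0 and 104.9 on day 2 to 82.2 and 72.3 on day 5, and Mthfd2 from 106.7 to 180.7 through 68.2 and 69.6 to 40.8 and 26.2. For all 3 genes the stem cell, day 2 and day 5 values did not overlap. No share of all genes is set beside this separation, so it describes these 3 genes only. Mthfd2 was 2.62-fold lower in Type III and 4.07-fold lower in Type I. Psat1 was at 191.7 to 233.1 in the 4 blastoid libraries, next to 202.4 and 218.5 in EPSC. Psph was at 41.1 in Type III and 33.07 in Type I, next to 35.95 in T09-treated EPSC. In proline synthesis Aldh18a1 was at 113.0 in Type III and 149.6 in Type I and at 63.4 in T09-treated EPSC, and Pycr1 at 16.4, 15.2 and 27.2, which placed the first and last enzymes on different sides. Asns was higher in siNT (469.1 CPM) than in untreated EPSC (212.4), by 2.21-fold, and lower again in Type I (195.8).

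Slc7a3 and Slc7a5 were lower in the day 5 blastoids and Slc38a2 was level. Slc7a3 was at 120.8 CPM in EPSC and 177.5 in T09-treated EPSC, 88.3 and 86.3 on day 2, 34.5 in Type III and 13.4 in Type I, which is 13.2-fold below T09-treated EPSC. Slc7a5 was at 354.4 to 421.8 in stem cells, 237.2 and 233.4 on day 2 and 121.1 and 119.2 on day 5, while its partner Slc3a2 was at 225.1 to 292.5, 207.7 and 196.8, and 181.1 and 178.6. Per kilobase Slc7a5 was therefore above Slc3a2 in each stem cell and day 2 library (95.57 against 63.79 in ESC) and below it on day 5 (32.66 against 51.32 in Type III). Slc7a1 was lowest on day 2, at 86.2 and 85.9, or 3.10-fold below untreated EPSC in siNT, and stood at 112.6 and 157.1 on day 5. Slc38a2 stayed between 223.7 and 300.7 in all 8 libraries.

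Among the stress factors, Trib3 was lower in the blastoids and Ddit4 was higher on day 5. Trib3 was at 20.4 to 29.1 CPM in stem cells and 5.34 to 8.85 in the 4 blastoid libraries, without overlap, and was 3.51-fold lower in siNT than in untreated EPSC. Atf4 was at 86.4 to 117.6 in the blastoids and 143.7 to 333.8 in the stem cells, also without overlap, but its ratios in the 3 comparisons with EPSC were under 2-fold. Ddit4 was at 149.1 in Type III and 112.3 in Type I, against 23.1 to 61.0 in the other 6 libraries, and was 6.44-fold and 4.85-fold higher than in T09-treated EPSC. Sesn2, which restrains mTORC1 when leucine is scarce, was at 83.5 to 108.0 in stem cells, 168.3 and 157.5 on day 2, 117.6 in Type III and 162.9 in Type I, with ratios under 2-fold in the same 3 comparisons. Cebpb was at 6.75 in Type III and at most 2.67 in the other libraries.

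The ER genes with the furthest ratios were Dnajc3 and Herpud1. Dnajc3 was at 37.2 to 77.5 CPM in stem cells, 130.4 and 123.9 on day 2 and 182.1 and 202.5 on day 5, with no overlap between the 3 kinds of library, and was 3.13-fold higher in Type I than in T09-treated EPSC. Herpud1 was at 18.6 to 24.9, 28.2 and 26.7, and 44.7 and 49.9 in the same order. Xbp1 was at 110.5 in Type III and 143.2 in Type I, above the other 6 libraries, whereas Sdf2l1 was at 16.8 and 19.5, next to 19.2 in ESC and below the other 5 libraries. Hspa5 and Hsp90b1 were within 1.49-fold and 1.46-fold over all 8 libraries. All 10 primitive endoderm markers were at least 2-fold higher in the day 5 and siNT blastoids than in their stem cell libraries, and 7 of 10 naive pluripotency markers were at least 2-fold lower on day 5. Trophectoderm markers summed to 1603 CPM in Type III and 1439 in Type I against 149.1 in T09-treated EPSC. Most of the 2 day 5 sums was keratin, with Krt8 at 754.3 and 716.8 and Krt18 at 648.4 and 552.9. Of 11 tested trophectoderm markers, 8 were at least 2-fold higher and 1 lower in Type III, and 7 and 1 in Type I. Tfap2c was at 28.1 in Type III and 19.5 in Type I against 104.5, and Elf5 was at 0.396 and 0.195. The part of these cell types in the differences above was not tested.

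**Figure D5:**
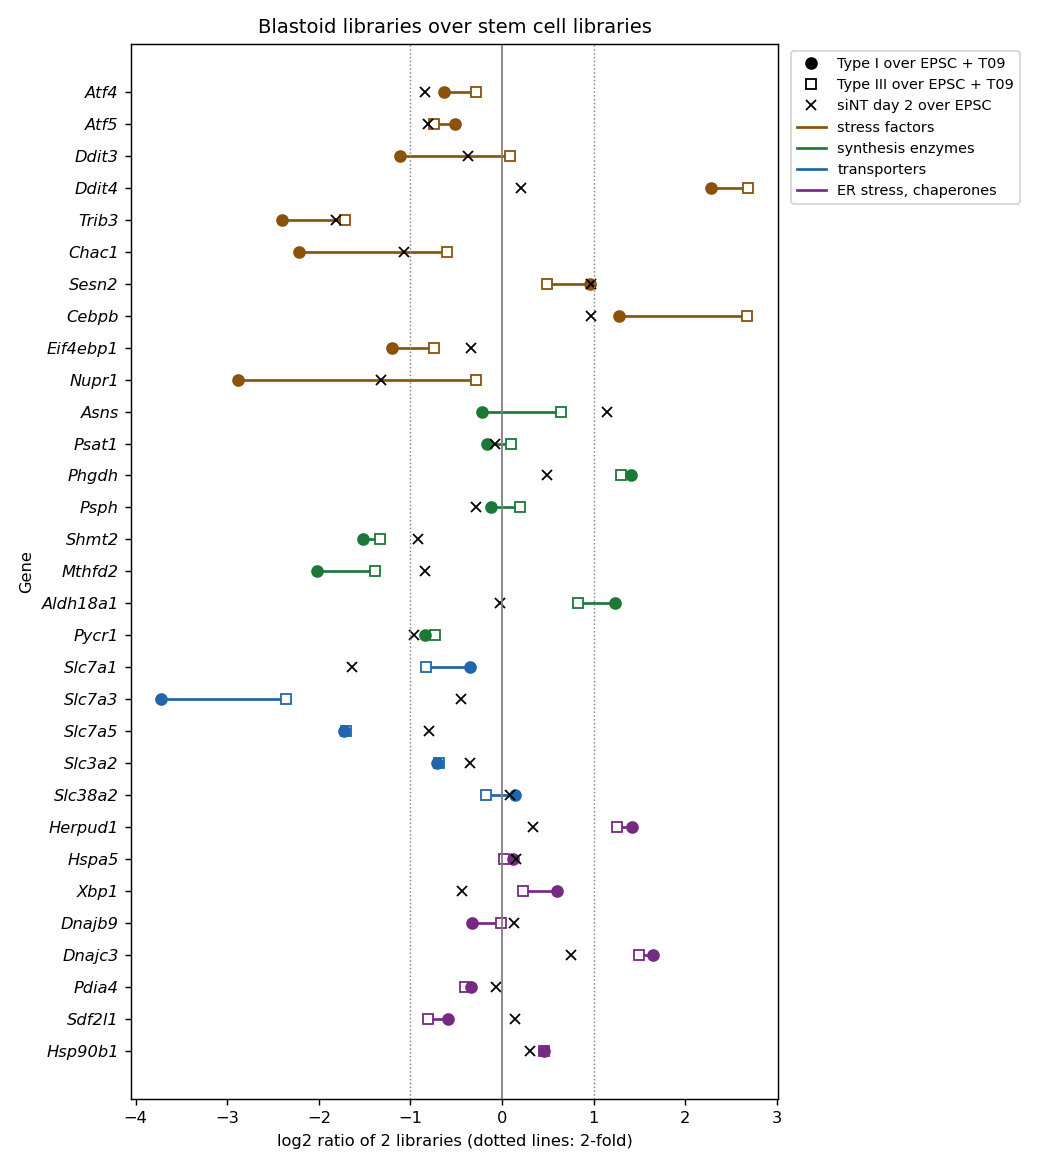
Points give log2 ratios for 31 genes with enough counts, with filled circles for Type I and open squares for Type III, each over T09-treated EPSC, and crosses for siNT day 2 blastoids over untreated EPSC. Slc7a3 is furthest to the left, at -3.73 in Type I, Ddit4 furthest to the right, at 2.69 in Type III, and Chac1, Nupr1 and Cebpb have the widest gaps between the types.

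In the last comparison, of the 2 kinds of day 5 blastoid, 4 stress factors and 1 transporter were lower in Type I. Of 31 genes with enough counts 5 were past 2-fold, all lower in Type I, where 7.68% of all genes were past 2-fold, 1.93% higher and 5.75% lower. Nupr1 was at 0.752 CPM in Type I (27 counts) and 4.84 in Type III (159 counts), 6.04-fold lower (log2 -2.59, interval -3.33 to -2.09). Chac1 was at 0.947 and 3.01, 3.05-fold lower, Cebpb at 2.54 and 6.75, 2.63-fold lower, and Ddit3 at 3.32 and 7.73, 2.31-fold lower. Slc7a3 was the only transporter among them, at 13.4 and 34.5, 2.57-fold lower. Below the 2-fold mark, Asns was at 195.8 in Type I and 356.3 in Type III (-0.86), Trib3 at 5.49 and 8.85 (-0.68) and Mthfd2 at 26.2 and 40.8 (-0.64), while Sesn2 (0.47), Slc7a1 (0.48), Aldh18a1 (0.40) and Xbp1 (0.37) were higher in Type I. Atf4 was at 92.8 and 117.6 (-0.34). The 8 ER genes lay between -0.31 and 0.37, with a median of 0.13 against 0.007 over all genes, and 24 of 31 further ER sensor, folding and degradation genes were above 0 (median 0.30). Naive pluripotency markers were lower in Type I for 7 of 10 genes at least 2-fold, with sums of 656.4 against 972.5 CPM, and primitive endoderm markers were above 0 for 10 of 10, with sums of 7855 against 5854 and none at least 2-fold. Trophectoderm markers were at least 2-fold lower for 3 of 11, with sums of 1439 against 1603. Their part in the 5 lower genes was not tested.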

How the data were processed

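The authors deposited 1 table of raw counts per gene symbol for 8 libraries, 1 per group, with 0 columns of no sample. Per the submitters' processing notes STAR, Cuffnorm, HTSeq and the build mm9 were used. Roles, versions, annotation and strand setting are not given in the sources used here. Libraries came from a directional kit, per the labels' protocols. Antisense overlaps cover 20.7% of the exon bases of Cebpb (with Tmem189), 10.4% of Psph and 10.3% of Hsp90b1 in GENCODE M21, so those counts are uncertain if strand was not used.

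Counts were scaled by TMM (edgeR 4.0.16, R 4.3.3). Ratios of 2 libraries used a prior count of 2 and exact conditional intervals. A gene was counted as different at 2-fold or more, with an interval excluding 1 and at least 20 counts in 1 library. ESC and EPSC with and without T09 were fitted together (terms for state and treatment, edgeR's quasi-likelihood test) after filterByExpr, with Benjamini-Hochberg adjustment over 14477 genes. The SE of a change was its size over the root of the test's F. Exon lengths came from GENCODE M21. Both procedures were run on simulated data, with the spread estimated by the same fit for the fit and counting error only for the pairs. Neither simulation measures how much cultures of the same group vary. Alternatives used DESeq2 1.42.0 and limma 3.58.1. All members are described, and of each other list up to 4 members with the largest state change that passed. Members and lists were chosen with earlier results of these data known.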

Additional observations from a re-analysis of the deposited data

Results flagged for a closer look

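In 11 of the 32 genes the T09 ratio had opposite signs in EPSC and ESC, each beyond its counting interval. This rule was applied to the 32 genes only. Without the share of all genes that meet it, the count cannot be called particular to these genes. With 1 library per group the difference between the states was not tested. The log2 ratio in EPSC minus that in ESC was -1.69 for Ddit4, -1.46 for Nupr1, -0.79 for Chac1, -0.57 for Slc7a1, -0.49 for Herpud1 and -0.42 for Aldh18a1. It was -0.32 for Slc7a5, -0.31 for Mthfd2, -0.26 for Atf4, -0.23 for Slc38a2 and 0.28 for Hspa5. Of these genes 10 were higher with T09 in ESC and lower in EPSC, and Hspa5 was the other way round. All 11 differences share the same 4 libraries, and intervals of well-counted genes are narrow enough to exclude 0 for small ratios.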

How the results depend on the processing

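The state count of 14 genes was 14 with RLE and limma-voom, 17 with library totals, 16 without a filter, and 12 with DESeq2 and with state alone. It ranged from 10 to 15 when each of the 4 libraries was left out of a fit of state alone, and the state count over all genes from 2892 to 3314. Reversed signs, all of genes that did not pass, were Phgdh with library totals (0.0014) and without ESC_T09 (0.17), Psph without ESC (-0.22) and without EPSC_T09 (-0.082), Slc7a5 without ESC (-0.081) and Slc7a1 without EPSC_T09 (0.0024). The T09 count over all genes, 15, was 46 without a filter, 36 with DESeq2 and 0 with treatment alone, and that of the 32 genes was 0 in each. At 1.5-fold and 4-fold, the 32 genes gave 8 and 1 for EPSC over ESC, 11 and 2 for the treated pair, 8 and 1 for Type I over Type III, 14 and 0 for siNT over EPSC, 21 and 6 for Type I and 19 and 3 for Type III over T09-treated EPSC. At 1.5-fold T09 gave 1 in EPSC and 2 in ESC (1 with no count minimum, Slc7a11). Shares of all genes are given at 2-fold only, so the counts at 1.5-fold and 4-fold cannot be set against a background. SiNr1h2 over siNT gave 1 with RLE, 0 at 4-fold and 0 with a prior count of 10. No scaling moved the median of all genes by over 0.1. Pairing ESC and EPSC by treatment is part of the state fit, and state alone is its unpaired form. No paired analysis was possible by replicate number, because each group is 1 library. Depth limits Slc7a11, and Chac1, Cebpb and Nupr1 in the blastoids.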
